A study of Homo sapiens with 8 samples.

Results

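Insulin-like growth factors (IGFs) act through a small set of receptors and are held in the extracellular space by secreted binding proteins, and 9 genes of that system were followed here: IGFBP2, IGFBP3, IGFBP4, IGFBP5, IGFBP6 and IGFBP7, and the receptors IGF1R, IGF2R and INSR. They were taken by gene name from a deposited table of 30386 genes; all 9 were listed and all 9 were among the 15330 genes with enough reads to test. The table holds RNA-seq read counts from cells of WTC-TJP1, an established line of human induced pluripotent stem cells, after differentiation. According to the labels, 4 samples were endothelial cells (iEC) and 4 came from a matched differentiation to retinal endothelial cells (iREC), all taken at passage 1, with replicate letters C, D, E and F in each group. No treatment is given for either group, and the factors used in the iREC differentiation are not given in the sources used here. Nothing in the labels says that the replicates were separate cultures, so the p-values measure only the spread between these samples, and a single line stands behind both groups.

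IGF1R and the insulin receptor INSR are tyrosine kinases that signal through IRS adaptors, PI3K and AKT, and AKT keeps FOXO transcription factors out of the nucleus. IGF2R, also called the cation-independent mannose 6-phosphate receptor, has no kinase: it takes up IGF2 for breakdown and sorts enzymes to lysosomes. The binding proteins carry IGFs, extend their life and control their access to IGF1R, and several also act on cells without IGF. IGFBP7 binds IGFs weakly and is known as a matrix protein of vessels, and IGFBP3, IGFBP5 and IGFBP7 have each been studied in endothelial cells.

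The binding proteins share an N-terminal domain whose core is a run of glycine and cysteine residues close to the IGF-binding site. The coding sequence of that core is shown because IGFBP6 and IGFBP7, the 2 genes with the largest differences between the groups, carry fewer of its codons than the other 4. Whether these codons bear on the RNA levels was not tested. Each stretch is 63 bases, read 5′ to 3′ on the coding strand from the GRCh38 genome within 1 exon of the GENCODE 29 principal transcript. Capitals mark those of 6 core glycine and cysteine codons that are present.
IGFBP2, chr2:216633758-216633820, plus strand: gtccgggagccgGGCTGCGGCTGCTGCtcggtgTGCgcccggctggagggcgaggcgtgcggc
IGFBP3, chr7:45920895-45920957, minus strand: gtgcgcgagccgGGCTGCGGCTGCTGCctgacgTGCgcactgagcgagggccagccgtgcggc
IGFBP4, chr17:40443877-40443939, plus strand: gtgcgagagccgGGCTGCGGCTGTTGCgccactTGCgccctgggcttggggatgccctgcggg
IGFBP5, chr2:216694572-216694634, minus strand: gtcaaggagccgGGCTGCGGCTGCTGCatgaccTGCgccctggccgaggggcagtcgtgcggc
IGFBP6, chr12:53097871-53097933, plus strand: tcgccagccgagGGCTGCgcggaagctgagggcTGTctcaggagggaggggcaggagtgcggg
IGFBP7, chr4:57110136-57110198, minus strand: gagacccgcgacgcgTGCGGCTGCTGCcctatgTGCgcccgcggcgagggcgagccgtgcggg
IGFBP2, IGFBP3, IGFBP4 and IGFBP5 carry 6 of 6 codons, IGFBP7 has 5 and IGFBP6 has 3. Over their whole translated coding sequences, IGFBP3 and IGFBP5 were the most alike pair, with 49.2% identical residues in a global alignment, and IGFBP6 and IGFBP7 the least alike, with 26.5%. IGFBP7 shared between 26.5% and 33.1% with each of the other 5.

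IGFBP2 alone among the 6 translated sequences holds an arginine-glycine-aspartate triplet, the motif that integrins recognise. Its codons are in capitals in this stretch of 39 bases near the end of the coding sequence.
IGFBP2, chr2:216664012-216664050, plus strand: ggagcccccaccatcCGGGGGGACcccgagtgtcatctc
IGF1R and INSR share 59.3% of aligned residues, 797 of 1345. Their kinase activation loops, whose tyrosines are phosphorylated when ligand binds, are shown because the 2 receptors differ there in 9 of 42 bases, in capitals, and in 0 of 14 encoded residues.
IGF1R, chr15:98942934-98942975, plus strand: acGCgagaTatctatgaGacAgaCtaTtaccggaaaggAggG
INSR, chr19:7120697-7120738, minus strand: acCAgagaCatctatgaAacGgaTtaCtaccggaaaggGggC

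The samples held 14877502 to 16971865 counts in iEC and 13739364 to 15987839 in iREC. All 12 endothelial markers examined were in the table, PECAM1, CDH5 and KDR among them. Their summed level was 8513 to 11811 CPM in iEC and 5266 to 11219 in iREC. CPM are reads relative to the library total, with TMM scaling for composition. Of the 12, 7 passed the edgeR test given below, against 25.0% of all genes tested. In iREC 5 were lower, PECAM1 and CDH5 among them, and 2 higher, TEK among them (11.7% and 13.2% over all). The sum thus joins markers that moved in both directions. One library stood apart: iREC F had the lowest endothelial sum, 5266 CPM against 8994 to 11219 in the other iREC samples. Its sum over 14 mural and mesenchymal markers was 4494 CPM against 631 to 1259. Its sum over 10 epithelial markers was 4928 CPM against 309 to 1123, most of it KRT8 at 3025 CPM and KRT18 at 1538. Both keratins were also present in iEC, KRT8 at 145 to 598 CPM and KRT18 at 228 to 465. Over 8 pluripotency markers iREC F had 519 CPM against 54.4 to 184, most of it LIN28A at 482 CPM. In iEC the mural and mesenchymal, epithelial and pluripotency sums were 263 to 510, 421 to 1227 and 40.0 to 92.1 CPM. Not every marker followed its sum: THY1 of the mural list and CLDN4 and CLDN7 of the epithelial list were lowest in iREC F. Results whose call, direction or order changes without iREC F are given with and without it.

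Of the 9 genes, 6 passed the test between the groups (edgeR quasi-likelihood F-test, adjusted p under 0.05 over all genes tested), against 25.0% of all genes tested. IGFBP2, IGFBP7, IGF1R and INSR were higher in iREC, 4 of 9 against 13.2% of all genes tested. IGFBP6 and IGF2R were lower, 2 of 9 against 11.7%. In 5 of the 9 the CPM values of the groups did not overlap, as in 29.1% of all genes tested. The 9 genes were chosen with earlier results of these data known, so these counts only describe them. The median log2 fold change of the 9 genes was 1.16 and that of all genes tested 0.02. These are amounts in bulk RNA, in which fewer cells expressing a gene and less RNA per cell cannot be told apart.

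**Figure D1:**
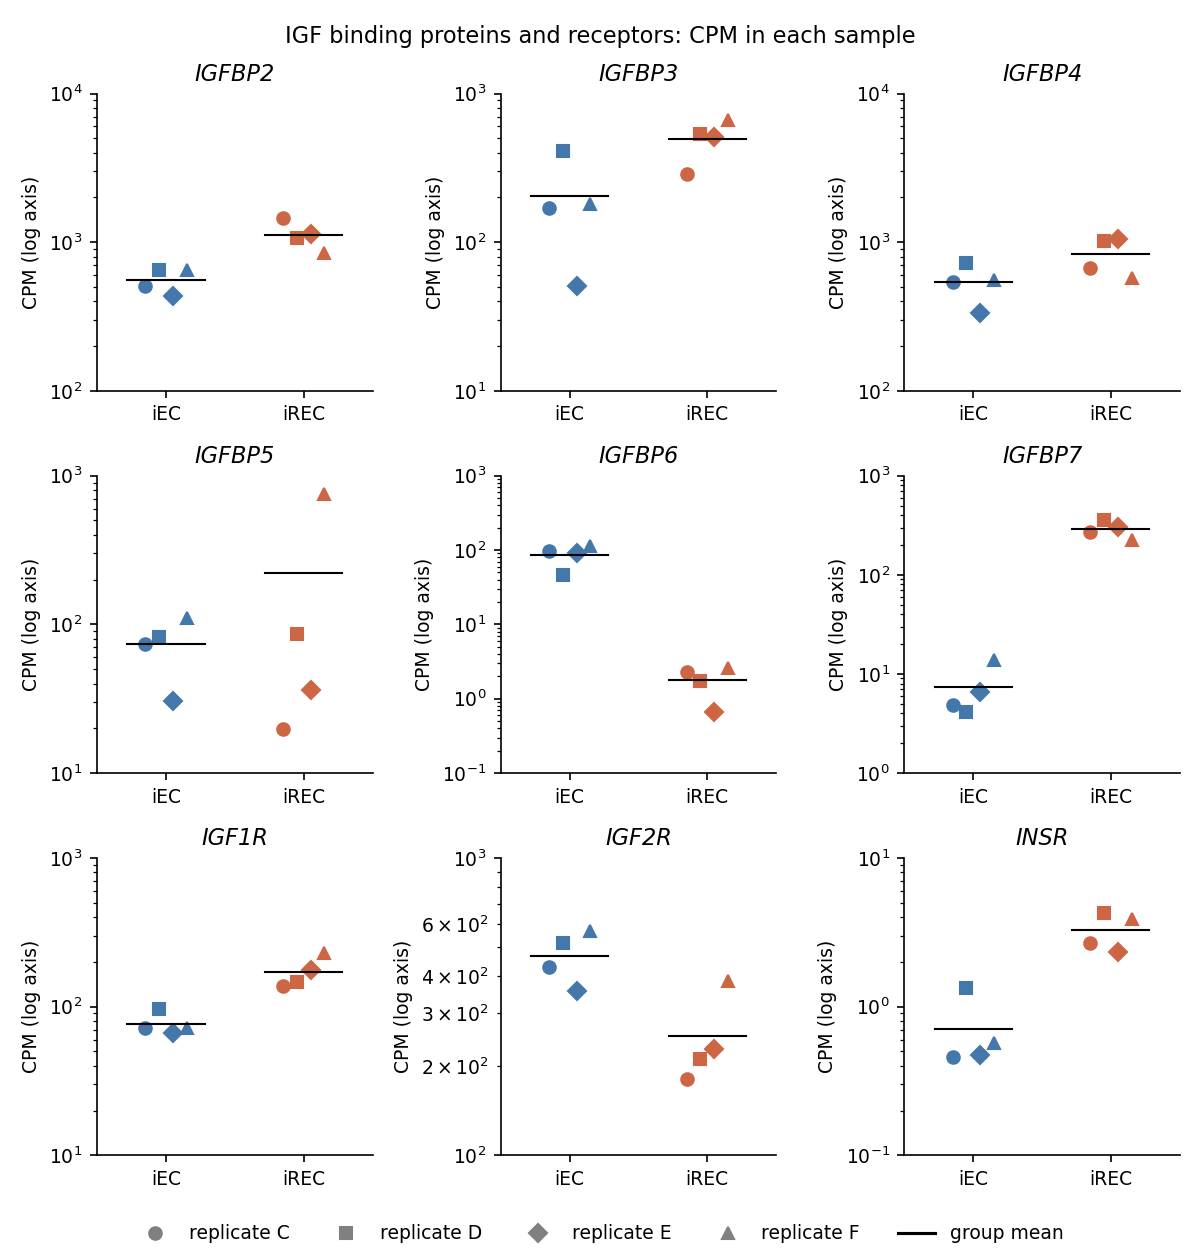
Level in CPM of each of the 9 genes in the 4 iEC (blue) and 4 iREC (orange) samples, on log axes whose range differs between panels; each point is a sample, its shape gives the replicate letter and the line is the group mean. IGFBP6 and IGFBP7 are the furthest apart, IGFBP5 is spread most within iREC, and IGF2R in iREC F lies within the iEC range.

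IGFBP7, on the minus strand of chromosome 4 (57030773 to 57110385), had the lowest mean level of the 6 binding proteins in iEC and was abundant in iREC. Its level in iEC was 4.81, 4.17, 6.57 and 13.9 CPM in replicates C, D, E and F. In iREC it was 272, 356, 307 and 223 CPM. The lowest iREC sample was thus far above the highest iEC sample, iEC F. The fitted difference was 39.5-fold, a log2 fold change of 5.30 ± 0.41 (SE, n = 4 per group; edgeR adjusted p = 5.06e-05). Among all listed genes ranked by mean FPKM, a deposited level corrected for gene length, IGFBP7 went from rank 7868 in iEC to rank 182 in iREC. IGFBP7 shares 270 exon bases at its end with POLR2B, an RNA polymerase II subunit gene on the opposite strand, and whether the authors' counting used strand is not given. POLR2B was at 164 ± 7.42 CPM (SD, n = 4) in iEC and 208 ± 15.2 (SD, n = 4) in iREC, and its part in the low IGFBP7 counts of iEC, 66 to 194 reads, was not tested.

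IGFBP6, on the plus strand of chromosome 12 (53097436 to 53102345), showed the opposite pattern. IGFBP6 is the binding protein with a marked preference for IGF2. In iEC it was at 97.4, 45.8, 90.5 and 113 CPM in C, D, E and F, and in iREC at 2.29, 1.71, 0.672 and 2.55 CPM. These levels come from 725 to 1583 reads per iEC sample and 11 to 39 per iREC sample. All 4 iREC samples lay far below all 4 iEC samples. The gene was 48.0-fold lower in iREC, a log2 fold change of -5.58 ± 0.43 (SE, n = 4 per group; edgeR adjusted p = 5.40e-05). Its FPKM rank went from 620 to 11758.

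IGFBP2, on the plus strand of chromosome 2 (216632828 to 216664436), rose in iREC. It is the binding protein with the integrin motif shown above, and is high in many fetal tissues. It was at 505, 648, 437 and 650 CPM in iEC C, D, E and F, and at 1460, 1064, 1127 and 845 CPM in the iREC samples in the same order. The groups did not overlap, and iREC C was the highest sample. The difference was 2.01-fold, a log2 fold change of 1.01 ± 0.20 (SE, n = 4 per group; edgeR adjusted p = 0.00635). IGFBP5 lies next to IGFBP2 on the opposite strand, the ends of the genes 7668 bases apart, but iREC C, the highest sample for IGFBP2, was the lowest for IGFBP5.

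IGFBP5, on the minus strand of chromosome 2 (216672105 to 216695525), binds matrix as well as IGFs and is made by many mesenchymal cells. It was at 73.6, 82.2, 30.5 and 110 CPM in iEC C, D, E and F. In iREC it was at 19.8, 86.8, 36.3 and 748 CPM. The first 3 iREC samples spanned much the same range as iEC, and iREC F alone was high. The log2 fold change was 1.59 ± 1.01 (SE, n = 4 per group; 95% interval -0.70 to 3.87; edgeR adjusted p = 0.288). Without iREC F it was -0.64 (edgeR adjusted p = 0.406), so the direction of this value rests on that library. There the summed mural and mesenchymal, epithelial and pluripotency markers were also highest. Their part in the IGFBP5 level was not tested. The authors' deposited table lists no p-value for IGFBP5.

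IGFBP3 and IGFBP4 had higher means in iREC without passing the test. IGFBP3, the main carrier of IGFs in serum, was at 169, 413, 50.4 and 181 CPM in iEC C, D, E and F and at 287, 535, 508 and 661 CPM in iREC. It varied 8.19-fold among the iEC samples, and iEC D lay above iREC C. The log2 fold change was 1.29 ± 0.53 (SE, n = 4 per group; edgeR adjusted p = 0.104), with an unadjusted 95% interval of 0.11 to 2.48. IGFBP3 passed in 2 of 17 alternative fits, with DESeq2 (adjusted p = 0.0406) and in edgeR without iEC D (log2 fold change 1.89, adjusted p = 0.0203), and the adjusted p ran from 0.0203 to 0.198 over all of them.

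IGFBP4, an inhibitor of IGF action that the protease PAPPA cleaves, had the highest level of the 6 binding proteins in both groups when divided by the deposited gene lengths. It was at 537, 729, 336 and 558 CPM in iEC C, D, E and F and at 665, 1012, 1054 and 578 CPM in iREC. iREC D and E lay above every iEC sample, and iREC C and F within the iEC range. The log2 fold change was 0.62 ± 0.27 (SE, n = 4 per group; 95% interval 0.01 to 1.22; edgeR adjusted p = 0.127), and it passed in none of the 17 alternative fits.

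**Figure D2:**
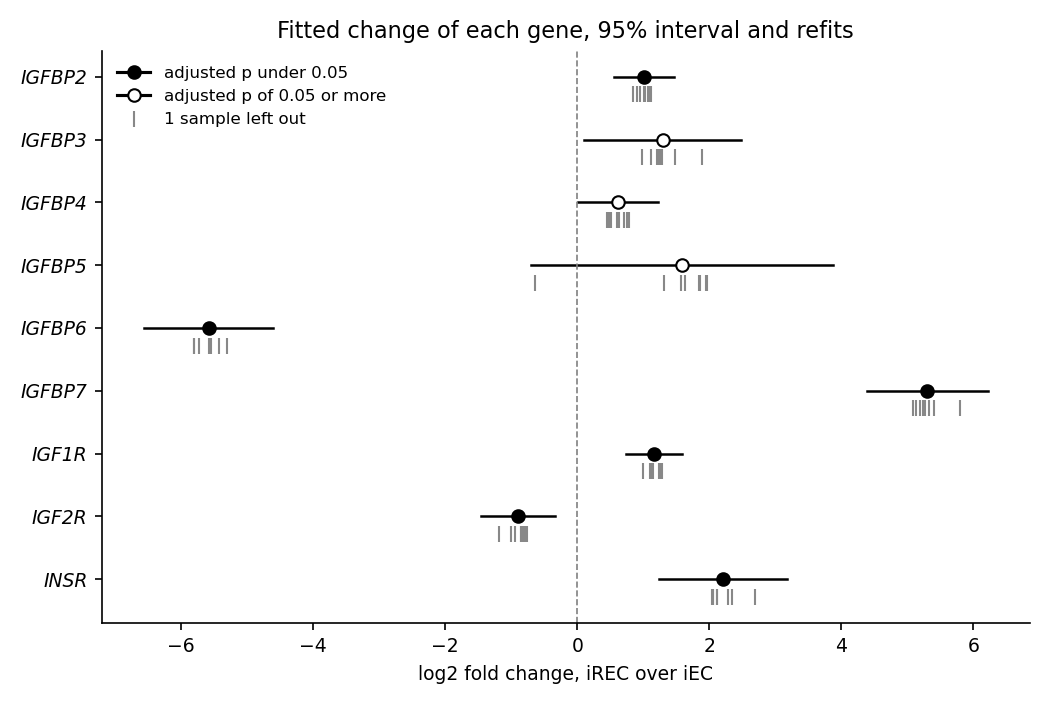
Log2 fold change of iREC over iEC for each gene (circles; filled where the edgeR adjusted p was under 0.05) with the unadjusted 95% interval (line); grey ticks under each are the values with each of the 8 samples left out in turn. IGFBP5 is the gene for which a tick, -0.64 without iREC F, lies on the other side of 0 from the circle.

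Levels of different genes can be set side by side only per length, and the deposited FPKM was used for this. In iEC, the order was IGFBP4 at 244 ± 71.8 FPKM, IGFBP2 at 117 ± 23.6, IGFBP6 at 64.2 ± 22.3, IGFBP3 at 44.0 ± 32.5, IGFBP5 at 11.5 ± 5.30 and IGFBP7 at 3.82 ± 2.43 (SD, n = 4 each). The ranges of IGFBP6 and IGFBP3, of IGFBP3 and IGFBP5, and of IGFBP5 and IGFBP7 overlapped, while IGFBP4, IGFBP2 and IGFBP6 were apart from each other. In iREC, the order was IGFBP4 at 369 ± 105 FPKM, IGFBP2 at 232 ± 51.9, IGFBP7 at 147 ± 27.7, IGFBP3 at 107 ± 33.9, IGFBP5 at 34.2 ± 54.2 and IGFBP6 at 1.32 ± 0.617 (SD, n = 4 each). There each of the first 5 overlapped with its neighbour, and IGFBP6 lay below the other 5 in every sample. Of these overlaps, only that of IGFBP4 and IGFBP2 was present without iREC F: in iREC C, D and E, IGFBP2 was at 218 to 301 FPKM, IGFBP7 at 138 to 180, IGFBP3 at 61.7 to 115 and IGFBP5 at 3.01 to 13.2. The mean of IGFBP5 over those 3 samples was 7.23 ± 5.30 FPKM (SD, n = 3).

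The summed binding protein RNA was 484 ± 118 FPKM in iEC (SD, n = 4; 327 to 594) and 891 ± 95.9 in iREC (SD, n = 4; 803 to 978), and the groups did not overlap. IGFBP4 and IGFBP2 together made up 72.5% to 77.0% of that sum in iEC and 53.8% to 74.5% in iREC, where iREC F was the lowest. IGFBP6 made up 14.2% ± 6.18 (SD, n = 4) in iEC and 0.154% ± 0.0826 (SD, n = 4) in iREC. IGFBP7 made up 0.812% ± 0.452 (SD, n = 4) in iEC and 16.5% ± 1.84 (SD, n = 4) in iREC. The place of IGFBP6 in the mixture was thus small in iREC and that of IGFBP7 small in iEC. Over all 8 samples, the shares of these 2 genes were the only ones whose ranges did not overlap between the groups. IGFBP3 made up 8.35% ± 4.81 and 12.1% ± 4.15 (SD, n = 4), and IGFBP5 2.28% ± 0.726 and 4.12% ± 6.72 (SD, n = 4), in iEC and iREC. Without iREC F, the IGFBP5 share in iREC was 0.764% ± 0.515 (SD, n = 3), below that of iEC, so its direction turns with that library. Its range was then 0.375% to 1.35%, with no overlap with the 1.43% to 3.18% of iEC.

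These shares depend on the length assigned to each gene. The deposited length of IGFBP2 is 4767 bases, whereas its principal transcript in GENCODE 29 has 1439, and for IGFBP3 the lengths are 4571 and 2262. With principal transcript lengths, an alternative chosen after seeing the data, IGFBP2 was the largest component, at 48.3% ± 4.28 of the sum in iEC and 48.1% ± 9.36 in iREC (SD, n = 4), and IGFBP4 made up 29.8% ± 2.76 and 23.0% ± 5.26 (SD, n = 4). The order of IGFBP2 and IGFBP4 therefore turns with the length used. With those lengths, IGFBP6 still made up 9.76% in iEC and 0.0983% in iREC, and IGFBP7 0.652% and 12.5%, without overlap between the groups.

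**Figure D3:**
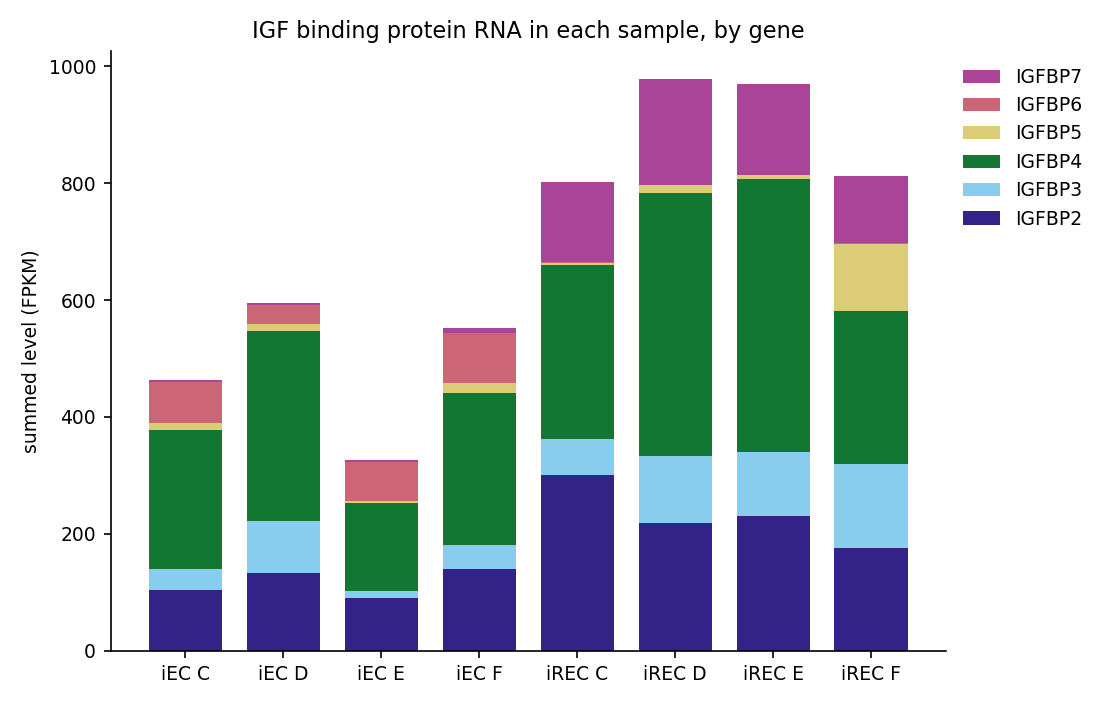
Stacked bars of the FPKM of the 6 binding protein genes in each sample, so that bar height is their sum. The iREC bars (803 to 978) are all taller than the iEC bars (327 to 594), the IGFBP6 band is too thin to see in iREC, the IGFBP7 band is thin in iEC and broad in iREC, and the IGFBP5 band is broad in iREC F.

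The receptors moved in different directions. IGF1R, on the plus strand of chromosome 15 (98648539 to 98964530), was at 72.0, 96.8, 66.6 and 71.3 CPM in iEC C, D, E and F. In iREC it was at 137, 146, 175 and 228 CPM. Every iREC sample lay above every iEC sample, with iREC F the highest. The log2 fold change was 1.16 ± 0.19 (SE, n = 4 per group; edgeR adjusted p = 0.00224), or 2.23-fold.

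INSR, on the minus strand of chromosome 19 (7112255 to 7294034), rose from a very low level. Its read counts were 7, 21, 8 and 8 in iEC C, D, E and F and 41, 60, 38 and 59 in iREC, or 0.455, 1.33, 0.474 and 0.573 CPM against 2.68, 4.28, 2.32 and 3.86 CPM. The groups did not overlap. The difference was 4.60-fold, a log2 fold change of 2.20 ± 0.43 (SE, n = 4 per group; edgeR adjusted p = 0.00565). With so few reads the size is loosely set, and the 95% interval of the fold was 2.35 to 9.01. By mean FPKM INSR ranked 21417 in iEC and 17219 in iREC among all listed genes.

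IGF2R, on the plus strand of chromosome 6 (159969099 to 160113507), was lower in iREC. It was at 428, 516, 356 and 568 CPM in iEC C, D, E and F and at 181, 211, 228 and 386 CPM in iREC. iREC C, D and E lay below every iEC sample, and iREC F lay above iEC E. The gene was 1.86-fold lower, a log2 fold change of -0.89 ± 0.25 (SE, n = 4 per group; edgeR adjusted p = 0.0286). With a sample left out, IGF2R no longer passed in 6 of 8 fits: without iREC C (adjusted p = 0.0658), D (0.0864) or E (0.0744), and without iEC C (0.0505), D (0.0614) or F (0.0653). It was kept without iREC F, at a log2 fold change of -1.18 (adjusted p = 0.00219), without iEC E (adjusted p = 0.0340), and in all 9 alternatives with every sample; all of these values have the same sign.

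As levels per length, the receptors ranked IGF2R, IGF1R and INSR in iEC, at 26.0 ± 5.66, 5.46 ± 0.928 and 0.0670 ± 0.0388 FPKM (SD, n = 4), with no overlap between neighbours. In iREC, IGF2R at 13.9 ± 5.17 FPKM and IGF1R at 12.1 ± 2.97 (SD, n = 4) overlapped, and INSR stood at 0.309 ± 0.0885 (SD, n = 4). The ratio of IGF2R to IGF1R within a sample was 4.64, 4.17, 4.17 and 6.22 in iEC C, D, E and F and 1.03, 1.13, 1.02 and 1.32 in iREC. So IGF2R RNA exceeded IGF1R RNA several times over in each iEC sample, and the pair were near equal in each iREC sample. This ratio was kept in iREC F, where both genes were at their highest iREC level. The ratio of IGF1R to INSR was 119, 54.7, 106 and 93.3 in iEC C, D, E and F and 38.3, 25.5, 56.6 and 44.2 in iREC. It was lower on the whole in iREC, but iEC D lay below iREC E.

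**Figure D4:**
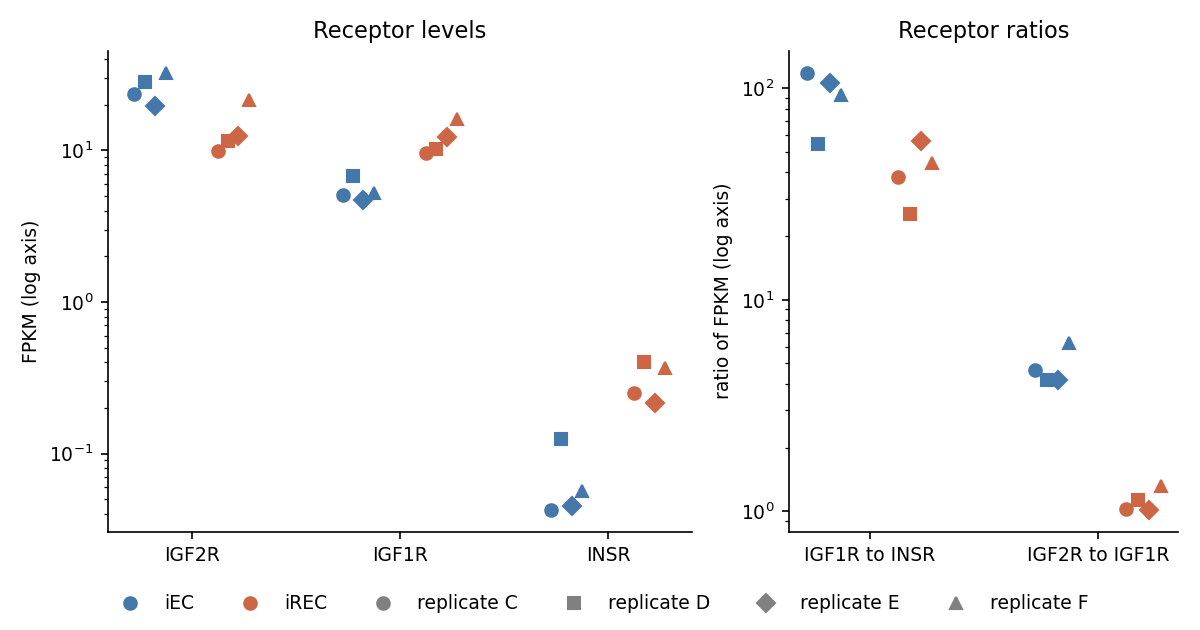
Left, FPKM of the 3 receptors in each sample, and right, the ratio of FPKM within each sample, both on log axes; colour gives the group (iEC blue, iREC orange) and shape the replicate letter. The IGF2R to IGF1R ratio sits between 4.17 and 6.22 in iEC and between 1.02 and 1.32 in iREC.

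Other genes of the pathway were read from 9 lists of 84 genes by role. Of these, 82 were in the table and 72 were tested. Of the 72, 29 passed the test (edgeR, adjusted p under 0.05), against 25.0% of all genes tested. Higher in iREC were 20 of the 72, against 13.2% of all genes tested, and lower were 9, against 11.7%. The median log2 fold change of the 72 was 0.11 and that of all genes tested 0.02. The lists too were chosen with earlier results of these data known, so their counts, here and below, are only a description. Among the ligands, IGF2 was the main change. IGF2, the fetal growth factor and the ligand that IGF2R clears, had 2, 8, 1 and 5 reads in iEC C, D, E and F and 1157, 3854, 6204 and 3259 in iREC, a mean of 236 ± 127 CPM (SD, n = 4). Its fitted log2 fold change was 9.79 ± 0.70 (SE, n = 4 per group; edgeR adjusted p = 3.78e-05), a size that rests on the few iEC reads. IGF2 is annotated in part within the INS-IGF2 readthrough gene, and how the authors' counting split reads between them is not given. IGF1 had at most 5 reads in any sample and was not tested. INS was not analysed here.

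Of 5 tested proteases of the binding proteins and their inhibitors, 2 passed, ADAM12 higher and STC1 lower in iREC, against 25.0% of all genes tested. IGFBP1, a further binding protein, did not pass, and neither did the protease PAPPA. IGFBP1, which insulin regulates, averaged 9.70 ± 8.73 CPM in iEC and 32.6 ± 13.7 in iREC (SD, n = 4; edgeR adjusted p = 0.0608). It passed in 6 of 17 alternative fits, among them edgeR without iREC F (log2 fold change 1.95, adjusted p = 0.0444) and without iEC D (2.57, 0.00682), with the adjusted p between 0.00682 and 0.142 over all 17. PAPPA, the protease that cleaves IGFBP4 and IGFBP5, was at 14.6, 7.90, 24.5 and 38.4 CPM in iEC C, D, E and F and at 31.3, 51.6, 34.0 and 218 CPM in iREC (log2 fold change 1.97 ± 0.71 SE, n = 4 per group; edgeR adjusted p = 0.0718). Like IGFBP5, PAPPA was highest in iREC F, and without that sample the log2 fold change was 0.87. ADAM12, a protease that cleaves IGFBP3 and IGFBP5, rose, averaging 14.8 ± 0.757 CPM in iEC and 65.6 ± 25.8 in iREC (SD, n = 4; adjusted p = 0.00046 in edgeR). STC1, a stanniocalcin of the family that blocks PAPPA, fell, averaging 255 ± 126 CPM in iEC and 1.30 ± 0.341 in iREC (SD, n = 4; adjusted p = 1.57e-05 in edgeR).

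Of 7 tested partners of the binding proteins, ITGAV alone passed, against 25.0% of all genes tested. This integrin chain, which can pair into receptors for the arginine-glycine-aspartate motif of IGFBP2, was at 117 ± 14.5 CPM in iEC and 400 ± 27.7 in iREC (SD, n = 4). Its log2 fold change was 1.77 ± 0.12 (SE; edgeR adjusted p = 3.78e-05). CD93, an endothelial receptor reported to bind IGFBP7, was at 1833, 2065, 1636 and 2154 CPM in iEC C, D, E and F and at 3292, 2742, 3068 and 1012 in iREC (log2 fold change 0.40 ± 0.32 SE, n = 4 per group; edgeR adjusted p = 0.404). iREC C, D and E were above all iEC samples and iREC F below them. Without iREC F the log2 fold change of CD93 was 0.66 (edgeR adjusted p = 0.0149), and over the 17 alternatives the adjusted p ran from 0.0149 to 0.664. M6PR, the smaller mannose 6-phosphate receptor, which shares lysosomal sorting with IGF2R, rose while IGF2R fell, averaging 90.1 ± 6.96 CPM in iEC and 143 ± 14.2 in iREC (SD, n = 4; adjusted p = 0.0027 in edgeR). None of 3 genes that make the mannose 6-phosphate tag passed, again against 25.0% of all genes tested.

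**Figure D5:**
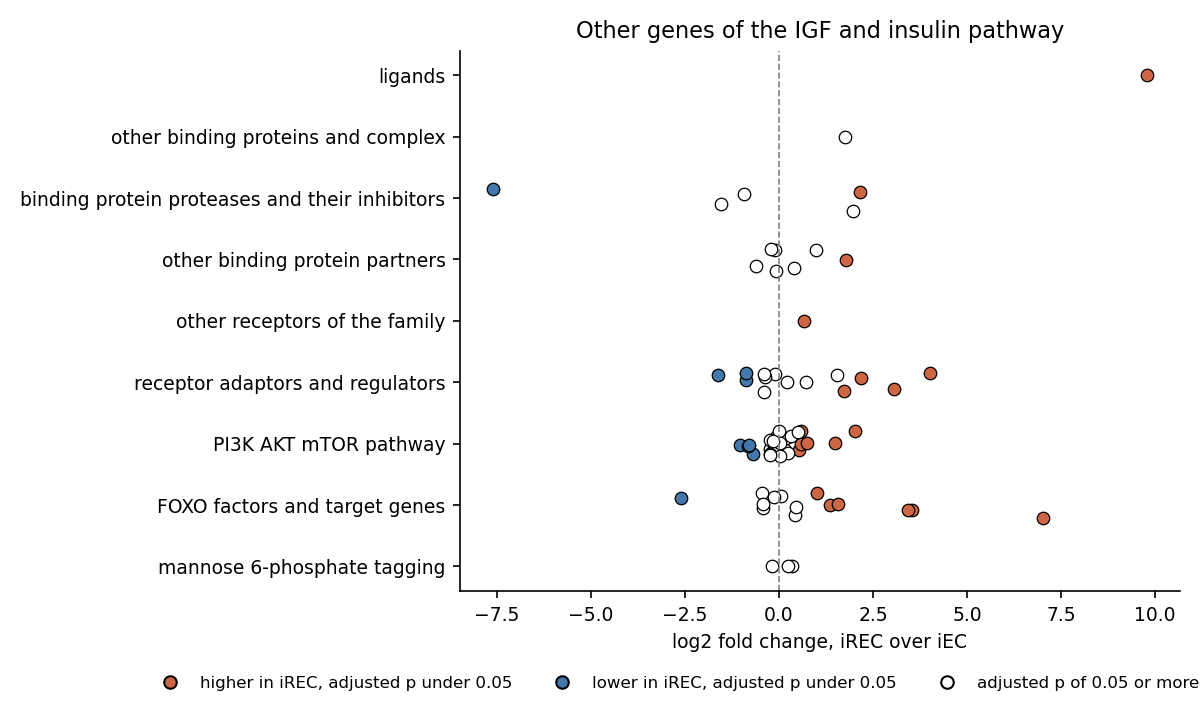
Log2 fold change of iREC over iEC for the 72 tested genes of the 9 pathway lists, 1 row per list; each circle is a gene, filled where the edgeR adjusted p was under 0.05 (orange higher in iREC, blue lower), with vertical scatter only to part the points. The far right point is IGF2 (9.79) and the far left point STC1 (-7.61).

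Downstream of the receptors, 7 of 14 tested adaptors and regulators passed, against 25.0% of all genes tested; 4 were higher in iREC and 3 lower, against 13.2% and 11.7%. IRS2, an adaptor of both IGF1R and INSR, was at 2.93, 9.80, 8.11 and 11.2 CPM in iEC C, D, E and F and at 126, 130, 164 and 99.9 CPM in iREC. Its log2 fold change was 4.02 ± 0.38 (SE, n = 4 per group; edgeR adjusted p = 0.000128), with every iREC sample far above every iEC sample. GRB14, an inhibitor of INSR kinase, rose as well, averaging 1.32 ± 0.993 CPM in iEC and 11.1 ± 3.34 in iREC (SD, n = 4; adjusted p = 0.00288 in edgeR). GRB10, a related inhibitor, averaged 168 ± 19.8 CPM in iEC and 90.8 ± 9.07 in iREC, and SHC1, which links receptors to RAS, 599 ± 99.8 and 328 ± 39.9 (SD, n = 4); both fell (adjusted p = 0.00108 and 0.00325 in edgeR).

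IRS1, the other main adaptor, was at 17.5, 9.61, 19.1 and 16.5 CPM in iEC C, D, E and F and at 27.8, 52.0, 26.4 and 178 CPM in iREC. All iREC samples were above all iEC samples, and iREC F was far above the rest. The log2 fold change was 2.18 ± 0.61 (SE, n = 4 per group; edgeR adjusted p = 0.0278) and 1.17 without iREC F, where the call was kept. It was lost without iEC C, D, E or F (adjusted p = 0.0636, 0.0649, 0.0608 and 0.0604), with limma-voom (0.0760) and with the replicate letter as a block (0.0647).

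In the PI3K, AKT and mTOR list 10 of 26 tested genes passed, against 25.0% of all genes tested, 6 higher and 4 lower (13.2% and 11.7% over all), and its median log2 fold change was 0.00. Among its passing genes that averaged 10 CPM or more in either group, the largest rises were in genes that oppose or follow AKT. PHLPP1, an AKT phosphatase, had a log2 fold change of 2.01 ± 0.23, the lipid phosphatase INPP5D 1.49 ± 0.37, and the ribosomal S6 kinase RPS6KB2 0.73 ± 0.13 (SE, n = 4 per group; edgeR adjusted p = 0.000327, 0.0166 and 0.00283). INPP5D lost its call without iEC C (edgeR adjusted p = 0.0506; 0.00072 to 0.0506 over 17 alternatives). The largest falls were in the PI3K catalytic subunit PIK3CB (-1.04 ± 0.15), the regulatory subunit PIK3R1 (-0.82 ± 0.12) and the translation repressor EIF4EBP1 (-0.80 ± 0.17; SE, n = 4 per group; edgeR adjusted p = 0.00112, 0.00101 and 0.00742). AKT1 and MTOR did not pass.

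Of 14 tested FOXO factors and target genes, 7 passed, against 25.0% of all genes tested, 6 of them higher in iREC (13.2% over all), and the median log2 fold change was 0.45. FOXO1, the main endothelial FOXO factor, averaged 52.8 ± 10.5 CPM in iEC and 135 ± 33.0 in iREC (SD, n = 4), without overlap. Its log2 fold change was 1.35 ± 0.21 (SE; edgeR adjusted p = 0.0017). SESN3, a stress-induced FOXO target, had a log2 fold change of 3.55 ± 0.38, and BCL2L11, which encodes the death protein BIM, 1.56 ± 0.37 (SE, n = 4 per group; edgeR adjusted p = 0.000249 and 0.0142). PDK4, a kinase that restrains pyruvate oxidation, had 0, 15, 1 and 5 reads in iEC C, D, E and F and 281, 932, 1197 and 330 in iREC (edgeR adjusted p = 0.000516). TRIB1, a pseudokinase, fell, averaging 66.7 ± 17.5 CPM in iEC and 10.9 ± 7.05 in iREC (SD, n = 4; adjusted p = 0.002 in edgeR).

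For each of the 6 genes that passed, the protein-coding genes most like it were found by Pearson r of log2 CPM over the 8 samples, out of 9949 genes. The samples share the group difference, and these genes were picked as the highest of 9949 over 8 samples. Each r is therefore only a description, with r after removing group means in brackets. For IGFBP2 they were CASP6 at 0.998 [0.991], TIMP3 at 0.982 [0.939] and CNN3 at 0.977 [0.901]. For IGFBP7 they were IL33 at 0.997 [0.926], NTN4 at 0.994 [0.938] and ZNF512B at 0.993 [0.811].

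For IGFBP6 the most alike were HARS at 0.996 [0.961], CDK2AP1 at 0.995 [0.948] and GNG2 at 0.992 [0.803], and 332 genes had r over 0.95 with it. For IGF1R, C14orf132 stood at 0.983 [0.892] and ENDOD1 at 0.981 [0.899]. IGF2R had 9 genes with r over 0.95, the fewest of the 6, led by ZNF609 at 0.965 [0.900], HSPBP1 at 0.964 [0.896] and PRKAB1 at 0.964 [0.896]. For INSR, whose low counts add scatter, they were ORMDL1 at 0.985 [0.916], GJA5 at 0.977 [0.845] and CCSAP at 0.973 [0.885].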

How the data were processed

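Messenger RNA of 4 iEC and 4 iREC samples was sequenced after poly-T selection, per the labels' protocols. The submitters' processing notes name fastp, HISAT2 2.0.5 and hg38; the counting program and its use of strand are not given in the sources used here. The deposited table gives, per the file headers, whole-number read counts, a normalized signal, FPKM, log2 fold changes and p-values. By their values, the authors' deposited normalized signal is the count divided by 1 factor per sample, and the deposited FPKM is that signal scaled by gene length. The log2 fold changes and p-values of the authors' deposited table were used only for IGFBP5.

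Counts were tested here with edgeR 4.0.16 (filterByExpr, TMM, quasi-likelihood F-test on all 8 samples, group only) in R 4.3.3, with Benjamini-Hochberg adjustment over 15330 genes and a threshold of 0.05. CPM uses TMM-scaled libraries, and log2 CPM a prior count of 2. The fit was tested on simulated data. Alternatives were DESeq2 1.42.0, limma-voom (limma 3.58.1), other scalings and filters, protein-coding genes only, a replicate block and each sample left out. Coding sequences came from GENCODE 29 on GRCh38. Genes were named by these rules: all 9 members; every passing gene of a pathway list with 5 or fewer, otherwise the 3 largest in each direction that averaged 10 CPM or more in either group; IGF1, IGF2, IGFBP1, PAPPA, IRS1, IRS2, CD93 and FOXO1; and the 3 genes most alike to each passing member. One gene that this rule names is not reported here. The members and lists were chosen with earlier results of these data known. The other genes named without passing, AKT1 and MTOR, and the marker genes lie outside these rules.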

Additional observations from a re-analysis of the deposited data

Results flagged for a closer look

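In 36 sets of 4 samples of 1 group, levels and shares of the 9 genes were searched for a single sample far from the other 3. It was found in 2 of the 36 sets. Were the sets independent, chance alone would flag about 1 in 20. They share genes and libraries, so the count of 2 in 36 cannot tell whether these are chance, which was not tested. IGFBP5 made up 14.2% of the summed binding protein FPKM in iREC F and 0.375% to 1.35% in the other iREC samples. IGFBP2 made up 37.5% of that sum in iREC C and 21.7% to 23.8% in the other iREC samples.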

How the results depend on the processing

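Of the 9 genes, 6 passed in the main test, 5 to 6 with a sample left out, and 5 to 7 in the 9 alternatives with all samples; INSR was not tested under the stricter filter, the 7 under DESeq2 include IGFBP3, and 6 passed with the replicate block. IGFBP2, IGFBP6, IGFBP7, IGF1R and INSR kept direction and call in every alternative that tested them. IGFBP5 reversed without iREC F (-0.64), with left-out values from -0.64 to 1.97, and was 0.27 with the replicate block. Without division by length, the log2 ratio of IGF2R to IGF1R was 2.60 in iEC and 0.52 in iREC, against 2.24 and 0.16 in FPKM. With principal transcript lengths the log2 ratio of IGF1R to INSR was 5.58 in iEC and 4.40 in iREC, against 6.48 and 5.30. DESeq2 and the fit with no filter, which keep low genes, moved the median log2 fold change of all genes by 0.14 and 0.13, less than any change called among the 9. Genes called over the table numbered 3829, 2660 to 4214 with a sample left out, 4954 with DESeq2 and 3334 with the replicate block. The letters were not taken as pairs: deviations of same-letter samples correlated at 0.17, -0.08, 0.03 and 0.25 for C, D, E and F, and iEC D correlated best with iREC C. Depth limits INSR most, at 7 to 21 reads per iEC sample.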
